A study of Arabidopsis thaliana with 6 samples.

Results

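The 41 genes described here encode the core histones of *Arabidopsis thaliana*, the proteins around which nuclear DNA is wound. They were chosen by what they encode, as the genes of histone H2A, H2B, H3.1, H3.3, H4 and the centromeric H3 (CENH3), and they are 41 of the 27444 protein-coding genes on the nuclear chromosomes in the gene models of TAIR10.1. H3K9Ac, the acetylation of lysine 9 of histone H3, was measured by ChIP-seq in whole etiolated seedlings that were 3 days old and carried *ein2-5*, a loss-of-function allele of the ethylene signalling protein EIN2 that makes seedlings insensitive to the hormone. Seedlings were treated for 4 h with 10 ppm ethylene or with air, and all samples of both treatments were *ein2-5*. Each treatment was sampled in 2 H3K9Ac libraries and 1 control. The labels name the controls IgG in the titles and Protein G beads in the antibody field.

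Histones of the replication-dependent kind are made in bulk during S phase, when new nucleosomes must be built on copied DNA. Variants such as H3.3 and H2A.Z are made and deposited outside replication too, and their genes differ in structure from the others, since H3.3 genes of plants carry introns and H3.1 genes do not. Acetylated H3K9 marks the beginnings of transcribed genes, so a histone gene can itself lie in chromatin that carries the mark. Of the 41 genes, 27 encode replication-dependent histones (5 H3.1, 8 H4, 4 H2A and 10 H2B genes). A further 6 encode the replacement variants H3.3 (3 genes) and H2A.Z (3 genes). The remaining 8 encode other variants, which are H2A.X (2 genes), H2A.W (3 genes), CENH3, HTA4 and HTB8.

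The authors pooled the 2 H3K9Ac libraries of a treatment before they called peaks, so each treatment has 1 peak list, no spread between replicates can be given and the treatments cannot be tested against each other. The ethylene list held 12864 peaks and the air list 18314. The peak caller used 43572576 H3K9Ac and 4354374 control tags for ethylene, and 45582654 H3K9Ac and 13726993 control tags for air. It scaled the H3K9Ac tags down to the depth of the control, by 0.0999 for ethylene and 0.301 for air, so that at the same fold enrichment a peak had a larger p in the ethylene list. Treatment and control depth cannot be told apart in any difference between the lists. The ChIP was checked on 5 constitutively expressed genes (ACT2, UBQ10, GAPC1, GAPC2 and EF1A4), which all had a peak in both lists. Their highest fold enrichments were 2.70 for ACT2 and 2.42 for GAPC2 in ethylene, and 2.89 for GAPC1 and 2.64 for ACT2 in air. It was also checked on 5 seed and flower genes (CRA1, SESA1, LEC1, AG and AP3), none of which had a peak in either list. Both sets were chosen with earlier results of these data known.

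The starts of the H3 coding sequences are shown first, because they encode the residue that the antibody detects and because they show how alike these genes are. The stretches are the first 30 coding bases in the RefSeq annotation of TAIR10.1, read 5′ to 3′ on the coding strand (minus for all 8 genes), and the capitals mark the codon of lysine 9.
HTR1 (H3.1), chr5:26120480-26120509: atggctcgtaccaagcaaaccgcaaggAAA
HTR2 (H3.1), chr1:2972103-2972132: atggctcgtaccaagcagacggctaggAAA
HTR3 (H3.1), chr3:10129840-10129869: atggctagaacaaagcaaacagctagaAAA
HTR9 (H3.1), chr5:3270859-3270888: atggctcgtaccaagcaaacagctcgtAAA
HTR13 (H3.1), chr5:3269446-3269475: atggctcgtactaagcaaaccgcgaggAAA
HTR4 (H3.3), chr4:18556388-18556417: atggctcgtaccaagcaaaccgctcgtAAG
HTR5 (H3.3), chr4:18558207-18558236: atggctcgtactaagcaaacagctcgtAAG
HTR8 (H3.3), chr5:3473320-3473349: atggctcgtaccaagcaaaccgctaggAAA
The codon was AAG in HTR4 and HTR5 and AAA in the other 6 genes. All 8 coding sequences were 411 bp long, and the 5 H3.1 genes shared between 80.3% and 89.5% of their coding bases with one another.

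H3K9Ac peaks were found at 23 of the 41 core histone genes in both treatments, and this count depended on the threshold, with 17 such genes left at a q-value limit of 0.05 and 11 left when only peaks of 2-fold enrichment or more were kept. A gene was counted when a peak overlapped its body or the 500 bp upstream of it by at least 1 bp. By this rule 23 of the 41 genes had a peak in the ethylene list (56.1%, against 46% of all protein-coding genes) and 30 had one in the air list (73.2%, against 60.9% of all protein-coding genes). Both lists held a peak for 23 genes (45.8% of all protein-coding genes), the air list alone for 7 (15.1%), the ethylene list alone for 0 (0.128%) and neither list for 11 (38.9%). At the q-value limit, 41.5% of members and 41.1% of all protein-coding genes had a peak in ethylene. With peaks of 2-fold enrichment or more, these shares were 31.7% and 33.9%. Histone genes are short, with a median length of 938 bp against 2078 bp for all protein-coding genes, and of the protein-coding genes no longer than 1500 bp only 26.3% had a peak in ethylene and 36% in air. In each of the 23 and 30 genes at least 1 peak had its summit inside the gene body, which held for 42.9% of all protein-coding genes in ethylene and 57.8% in air. The strongest such peak is called the main peak of the gene below. The libraries come from whole seedlings, so fewer cells with the mark and less of it per cell cannot be told apart.

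**Figure D1:**
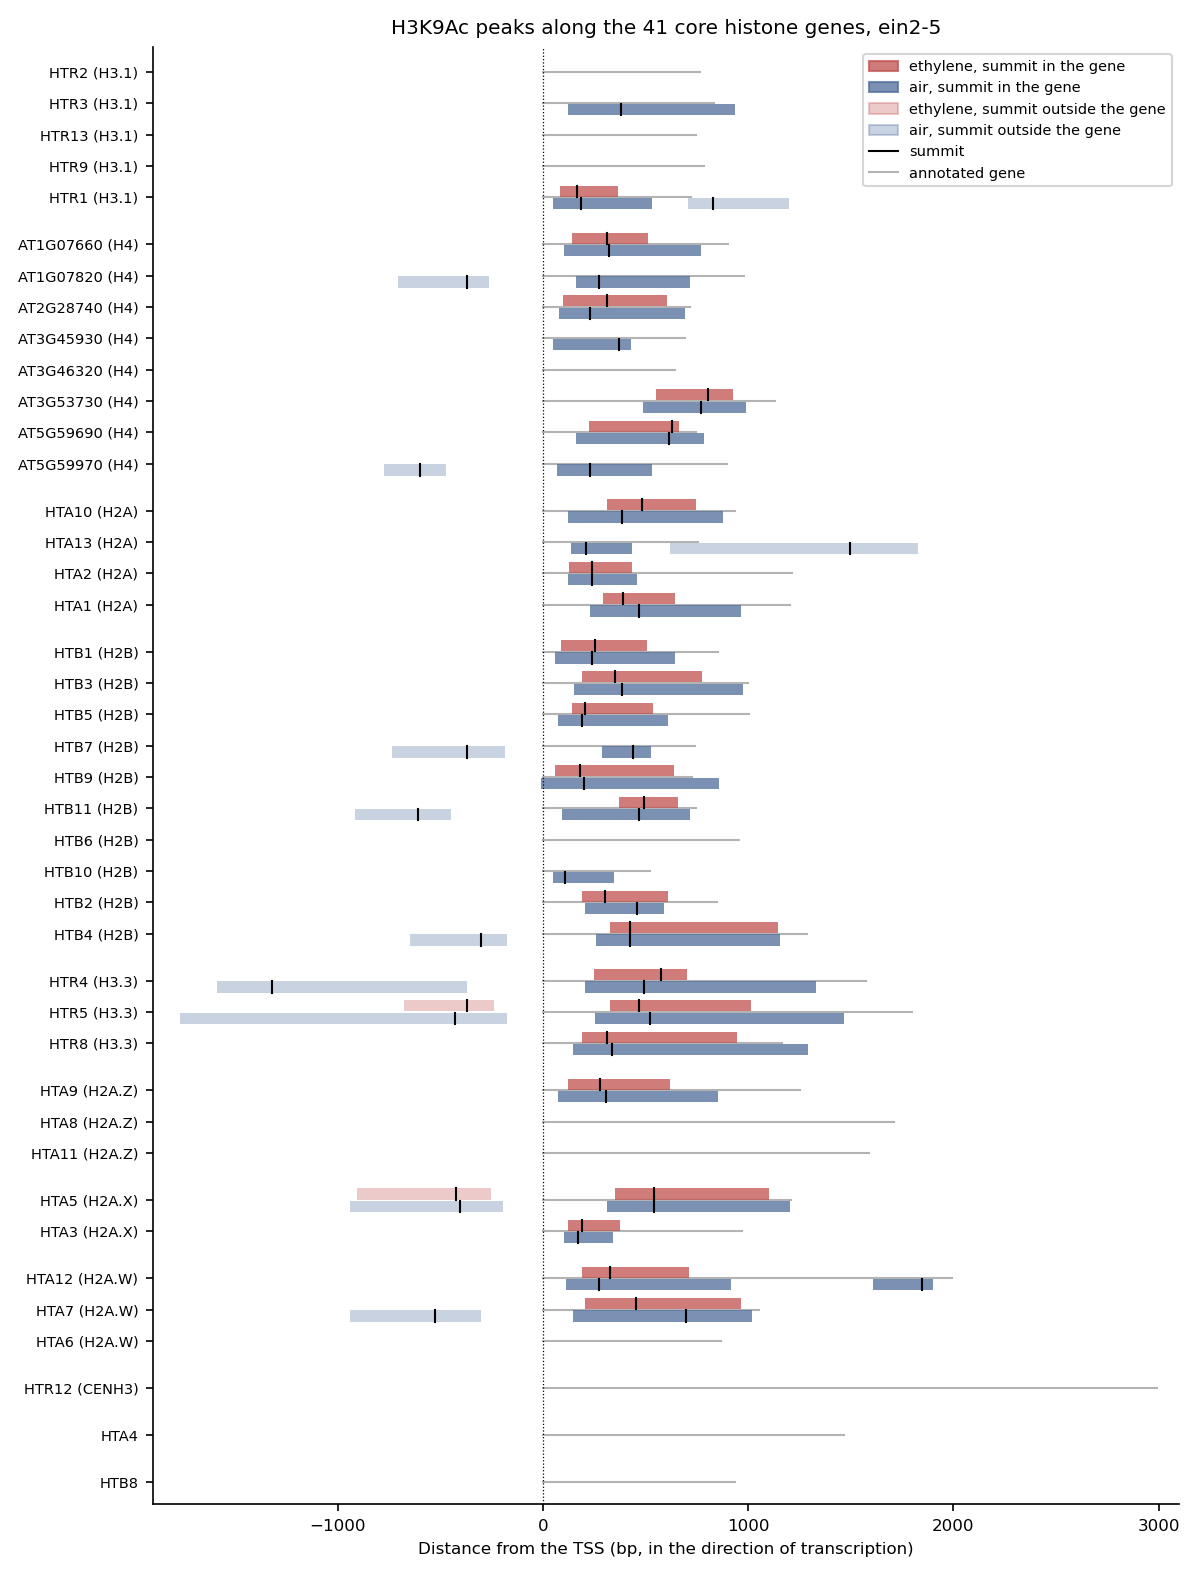
H3K9Ac peaks of the 41 core histone genes by distance from the TSS (x axis, in bp in the direction of transcription), with 1 row per gene grouped by subfamily, ethylene peaks above air peaks, and pale bars for peaks whose summit lies outside the gene. The main peaks start downstream of the TSS in all 23 genes in ethylene and in 29 of 30 in air, and 11 genes have no peak in either list.

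The histone genes were next counted by class. The classes are small and genes are not replicates, so no test was made between them. Of the 27 replication-dependent genes, 15 had a peak in ethylene and 22 in air. The 6 replacement variant genes had 4 in each list, and the 8 other variant genes had 4 in each list. Over all protein-coding genes the shares were 46% in ethylene and 60.9% in air. All 7 genes with a peak in air alone were replication-dependent, a class that holds 27 of the 41 genes. Over all protein-coding genes 15.1% had a peak in air alone. With the air list reduced to its 12864 peaks of lowest p, as many as the ethylene list holds, 23 members had a peak in ethylene (46% of all protein-coding genes) and 23 in air (48.3%), of which 19 had both, 4 had one in ethylene alone and 4 in air alone. At a q-value of at most 0.05 in both lists, 13 members had a peak in air alone, a share not computed over all protein-coding genes. At that limit 41.5% of members and 41.1% of all protein-coding genes had a peak in ethylene. In air these shares were 73.2% and 60.7%.

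H3.1 is the H3 that chromatin assembly factor 1 places on newly copied DNA. Of its 5 genes, 1 had a peak in ethylene and 2 in air, the smallest shares among the 4 replication-dependent subfamilies. HTR1 had a fold enrichment of 1.82 and 263 H3K9Ac tags at the summit in ethylene, against 2.42 and 265 tags in air. Its summed breadth of 287 bp in ethylene, against 976 bp in air, was the smallest of the replication-dependent genes in ethylene. Of the breadth in air, 491 bp came from a peak whose summit lay over the neighbour AT5G65350. The main peak of HTR1 in air was 485 bp broad. HTR3 had a peak in air alone, with a breadth of 815 bp, a fold enrichment of 1.76 and 259 tags. No peak overlapped HTR2 (chromosome 1, 2971571 to 2972334), HTR9 (chromosome 5, 3270172 to 3270957) or HTR13 (chromosome 5, 3268847 to 3269594). HTR9 and HTR13 are neighbours, transcribed from the same strand with 577 bp between them.

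All 3 genes of H3.3, the H3 that is deposited outside replication, carried a peak in both lists. HTR8 (chromosome 5, 3472405 to 3473570) had the tallest summit of the histone genes in air and shared that place in ethylene with the H2B gene HTB3, with 360 tags in ethylene and 373 in air, and a fold enrichment of 2.57 in ethylene and 3.05 in air. The main peaks of HTR4, HTR5 and HTR8 were 450, 687 and 756 bp broad in ethylene, against 1123, 1217 and 1144 bp in air. HTR4 and HTR5 had the lower fold enrichments, 2.16 and 1.98 in ethylene, against 2.60 and 2.73 in air. In air the 3 breadths lay above those of all other histone genes, of which the broadest main peak was 897 bp, in HTA5. HTR4 and HTR5 lie 42 bp apart on chromosome 4 in the same orientation, and the main air peak of HTR5 reached into the 500 bp upstream of HTR4, so that 1 peak of 1217 bp was counted for both. A second peak upstream of HTR5 had its summit over the neighbouring gene AT4G40042, at -371 bp from the TSS of HTR5 in ethylene and at -428 bp in air. With such peaks included, the summed breadths in ethylene were 450 bp for HTR4, 1124 bp for HTR5 and 756 bp for HTR8. In air they were 2340 bp for HTR4, 2811 bp for HTR5 and 1144 bp for HTR8.

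H4 pairs with H3 in the centre of the nucleosome. Of its 8 genes, 4 had a peak in ethylene and 7 in air. Among them AT1G07660 had the highest fold enrichment in both lists, 2.83 in ethylene and 2.74 in air. The lowest values belonged to AT3G53730 in ethylene, at 1.57, and to AT5G59690 in air, at 1.77. AT1G07820, AT3G45930 and AT5G59970 had a peak in air alone, with fold enrichments of 2.63, 2.31 and 1.95 and with 227, 204 and 210 tags at the summit. Only AT3G46320 (chromosome 3, 17019785 to 17020428) had no peak in either list. AT3G53730 was the gene with its summit farthest from the TSS, at 804 bp in ethylene and 770 bp in air, and its start codon lies 545 bp downstream of the TSS.

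Among the 4 replication-dependent H2A genes, 3 had a peak in ethylene and all 4 in air. HTA1, HTA2 and HTA10 had fold enrichments of 2.22, 1.66 and 1.86 in ethylene, against 2.61, 1.86 and 2.74 in air. HTA13 had a peak in air alone, with the lowest main-peak fold enrichment of any histone gene in either list (1.47, 182 tags). Its summed breadth in air, 1509 bp, was the largest of the replication-dependent genes, but 1211 bp of it came from a peak whose summit lay over the downstream neighbour AT3G20680. The main peak of HTA13 was 298 bp broad.

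H2B, the partner of H2A, is encoded by 10 replication-dependent genes, of which 7 had a peak in ethylene and 9 in air. HTB1 (chromosome 1, 2412938 to 2413790) had the highest fold enrichment of the histone genes in air (3.32, 316 tags). In ethylene it tied for the highest with AT1G07660 (2.83, 284 tags). HTB4 had the broadest main peak of the replication-dependent genes in both lists, 819 bp in ethylene and 896 bp in air. HTB7 and HTB10 had peaks in air alone, with fold enrichments of 1.55 and 1.83 and 177 and 157 summit tags, the fewest of the 30 genes with a peak in air. The peak of HTB10 was 295 bp broad, the smallest summed breadth of the class in air. HTB6 (chromosome 3, 19889297 to 19890251) had no peak in either list.

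The H2A variants did not behave as 1 group. H2A.Z is the variant placed at the first nucleosomes of genes by the SWR1 complex, and of its 3 genes HTA9 had a peak in both lists, with a fold enrichment of 2.44 in ethylene and 3.16 in air and a breadth of 501 bp in ethylene and 783 bp in air. HTA8 and HTA11 had none. H2A.X, which is phosphorylated at DNA breaks, is encoded by HTA3 and HTA5, and both had peaks in both lists. HTA5 had a fold enrichment of 2.60 in ethylene and 2.71 in air, and its summed breadth of 1404 bp in ethylene and 1647 bp in air, the largest of the other variants, included a peak over the neighbour AT1G08890. Of the 3 genes of H2A.W, a variant of heterochromatin, HTA7 and HTA12 had peaks in both lists and HTA6 had none. HTA7 and HTA12 had fold enrichments of 2.22 and 1.74 in ethylene, against 3.06 and 3.02 in air. HTB10 lies inside HTA12 on the opposite strand, and a peak of 295 bp in the air list was counted for both genes. Its summit, with 157 tags, lay 106 bp downstream of the TSS of HTB10 and 1845 bp downstream of that of HTA12.

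No peak overlapped the remaining variants in either list. These were HTR12, which encodes CENH3, the H3 of centromeres, HTA4, an H2A gene of divergent sequence, and HTB8, an H2B gene known from seeds. The 11 genes without a peak were therefore HTR2, HTR9, HTR13, AT3G46320, HTB6, HTA8, HTA11, HTA6, HTR12, HTA4 and HTB8. A gene without a peak may still carry H3K9Ac below the threshold of the peak caller, since the lists hold only regions that passed it.

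**Figure D2:**
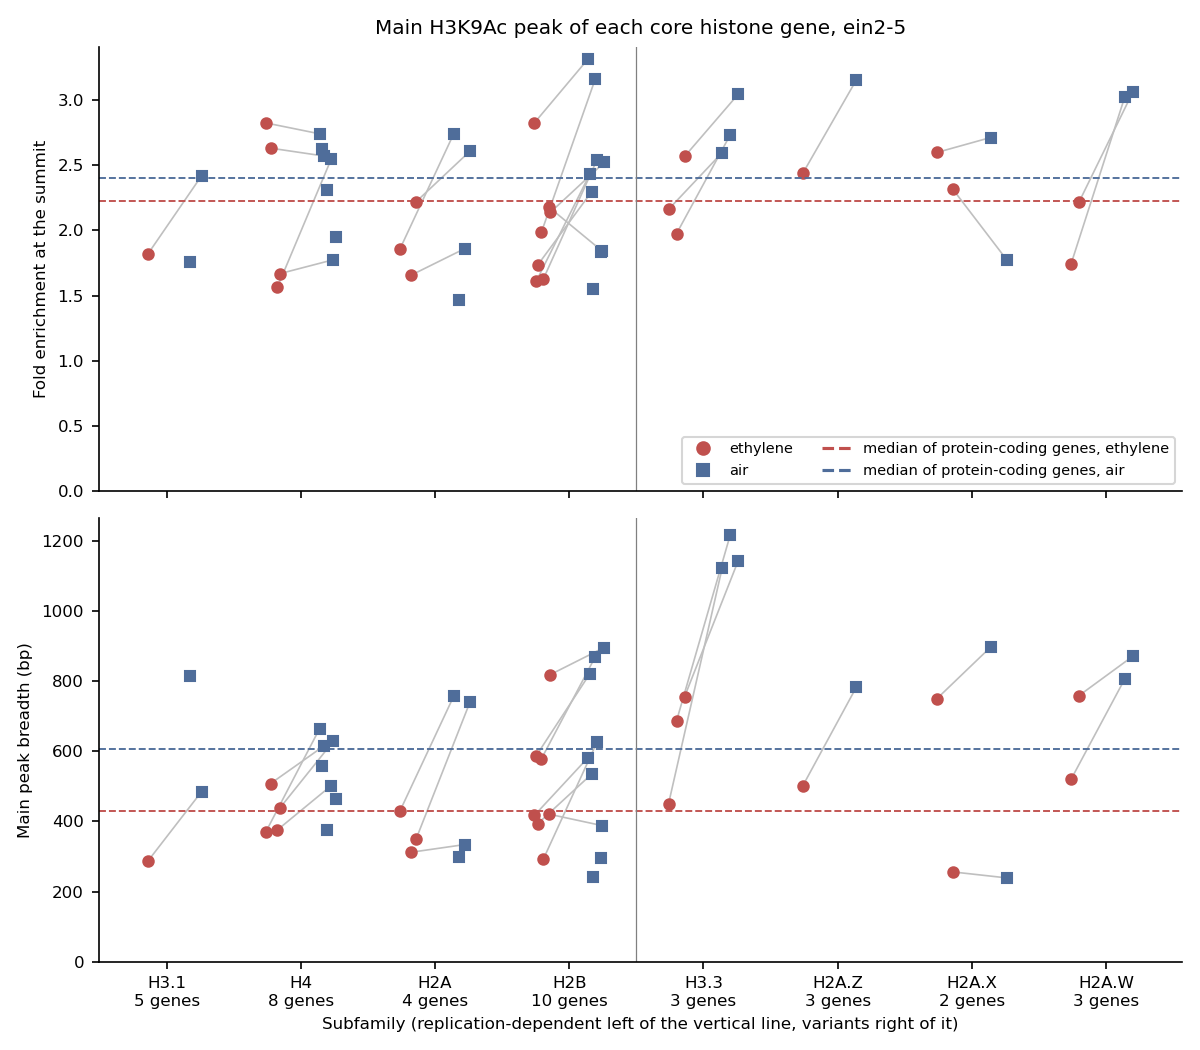
Fold enrichment at the summit (upper panel) and breadth in bp (lower panel) of the main H3K9Ac peak of each gene by subfamily (x axis), with circles for ethylene, squares for air, grey lines joining the values of 1 gene and dashed lines at the medians over protein-coding genes. The 3 H3.3 genes have air peaks of 1123 to 1217 bp, and no other histone gene has a main peak broader than 897 bp.

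Replication-dependent genes had lower median values than replacement variant genes and the other variants in both lists. Their median fold enrichment was 1.86 in ethylene (15 genes) and 2.43 in air (22 genes). For the replacement variants it was 2.30 in ethylene and 2.89 in air (4 genes in each list), and for the other variants 2.27 in ethylene and 2.87 in air (4 genes in each list). With peaks of at least 2-fold enrichment, the ethylene medians were 2.43 for 6 replication-dependent genes and 2.44 for 3 replacement variant genes. Over all protein-coding genes with a main peak, the medians were 2.22 in ethylene and 2.40 in air. The ranges of the classes overlapped, from 1.57 to 2.83 for replication-dependent genes against 1.98 to 2.57 for replacement variants in ethylene, and from 1.47 to 3.32 against 2.60 to 3.16 in air.

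The replication-dependent genes also had the smallest median breadth. The main peak of replication-dependent genes had a median breadth of 417 bp in ethylene and 570.5 bp in air, that of replacement variant genes 594 bp in ethylene and 1133.5 bp in air, and that of the other variants 635 bp in ethylene and 838.5 bp in air. Over all protein-coding genes these medians were 431 bp in ethylene and 606 bp in air. Gene length moved with class, since replication-dependent genes had a median length of 833 bp and replacement variant genes one of 1581 bp, and its part in the breadths was not tested. Summed over all overlapping peaks, the median breadth was 417 bp in ethylene and 749 bp in air for replication-dependent genes, and 628.5 bp in ethylene and 1742 bp in air for replacement variants. The sums include neighbouring genes, because 2 of the 25 gene and peak pairs in ethylene and 11 of the 42 in air had the summit in another gene and not in the member.

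Most main peaks had their summit in the first 50% of the gene, though in a smaller share than over all protein-coding genes. In ethylene the summit lay in the first 50% of the annotated gene in 19 of 23 genes (82.6%, against 92.2% of all protein-coding genes with a main peak). In air it did in 23 of 30 (76.7%, against 92.3%). The members had a median length of 938 bp, against 2078 bp for all protein-coding genes. These shares were not computed over short genes, and the part of gene length in them was not tested. By distance, summits stood at a median of 329 bp downstream of the TSS in ethylene and 352.5 bp in air, against 353 bp and 338 bp over all protein-coding genes. Over protein-coding genes no longer than 1500 bp these medians were 338 bp in ethylene and 327.5 bp in air. Of the 23 summits in ethylene, 17 lay in coding sequence, 4 in introns, 1 in a 5′ UTR and 1 in a 3′ UTR. In air, 21 of the 30 summits lay in coding sequence, 7 in introns, 1 in a 5′ UTR and 1 in a 3′ UTR. This place was not computed over all protein-coding genes, so the counts are not read as a trait of histone genes. In air none of the 3 H3.3 summits lay in coding sequence, since that of HTR4 was in the 5′ UTR and those of HTR5 and HTR8 were in introns. The summit in the 3′ UTR belonged to the H4 gene AT5G59690 in both lists. Every main peak in ethylene started downstream of the TSS (98.8% of all protein-coding genes with a main peak did), at a median of 192 bp. In air 29 of 30 did (96% of all protein-coding genes), at a median of 122.5 bp, and the exception was HTB9, whose peak began at -11 bp. The main peak ended past the gene end in 0 of 23 genes in ethylene (0.789% of all protein-coding genes) and in 4 of 30 in air (2.16%). These shares too were not computed over short genes.

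Breadths were smaller in ethylene than in air for nearly all histone genes, as they were genome-wide. Of the 23 genes with a peak in both lists, 21 had a smaller summed breadth in ethylene, against 96.7% of all protein-coding genes with a peak in both. The exceptions were HTA3, with 256 bp in ethylene and 239 bp in air, and HTB2, with 421 bp in ethylene and 388 bp in air. Over all protein-coding genes 3.21% were broader in ethylene. For both exceptions the fold enrichment was also higher in ethylene. It was 2.31 in ethylene and 1.78 in air for HTA3, and 2.18 in ethylene and 1.84 in air for HTB2.

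Fold enrichment was lower in ethylene for 19 of the 23 genes, against 68.6% of all protein-coding genes with a main peak in both lists. Fold enrichment is the pileup at the summit over a local background, and that background moved with it. On the scale of H3K9Ac tags the background at the members' peaks had a median of 142 in ethylene and 113 in air, and it was higher in ethylene at 19 of the 23 genes, against 61.9% of all regions with 1 peak in each list. By the same arithmetic, the 4 genes with a higher fold enrichment in ethylene (HTA3, HTB2, AT1G07660 and AT2G28740) were the 4 with a lower derived background there. HTB3 shows how far the values can part, since its summit held 360 tags in ethylene and 352 in air while its background was 220 tags in ethylene and 143 in air, and its fold enrichment was 1.61 in ethylene and 2.43 in air.

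The number of H3K9Ac tags at the summit differed little between treatments. Tag numbers were worked back from the pileup, and their ratio was taken after a correction for the ceiling of 400 tags that 1 tag per position and strand allows. Over the 23 genes with a matching main peak in each list, the median ratio of ethylene over air was 1.04 and single genes lay between 0.821 and 1.23. The 11700 regions with 1 peak in each list had a median ratio of 1.03, with the middle 50% between 0.973 and 1.09. The 95% counting interval left out 1 in 2 of the 23 genes, against 4.83% of all regions. HTB1 had 284 tags in ethylene and 316 in air, a ratio of 0.821 (0.690 to 0.977). HTA12 had 356 tags in ethylene and 338 in air, a ratio of 1.23 (1.03 to 1.46). These intervals cover counting error only and not the spread between seedlings or libraries, so they are no test of the treatment.

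**Figure D3:**
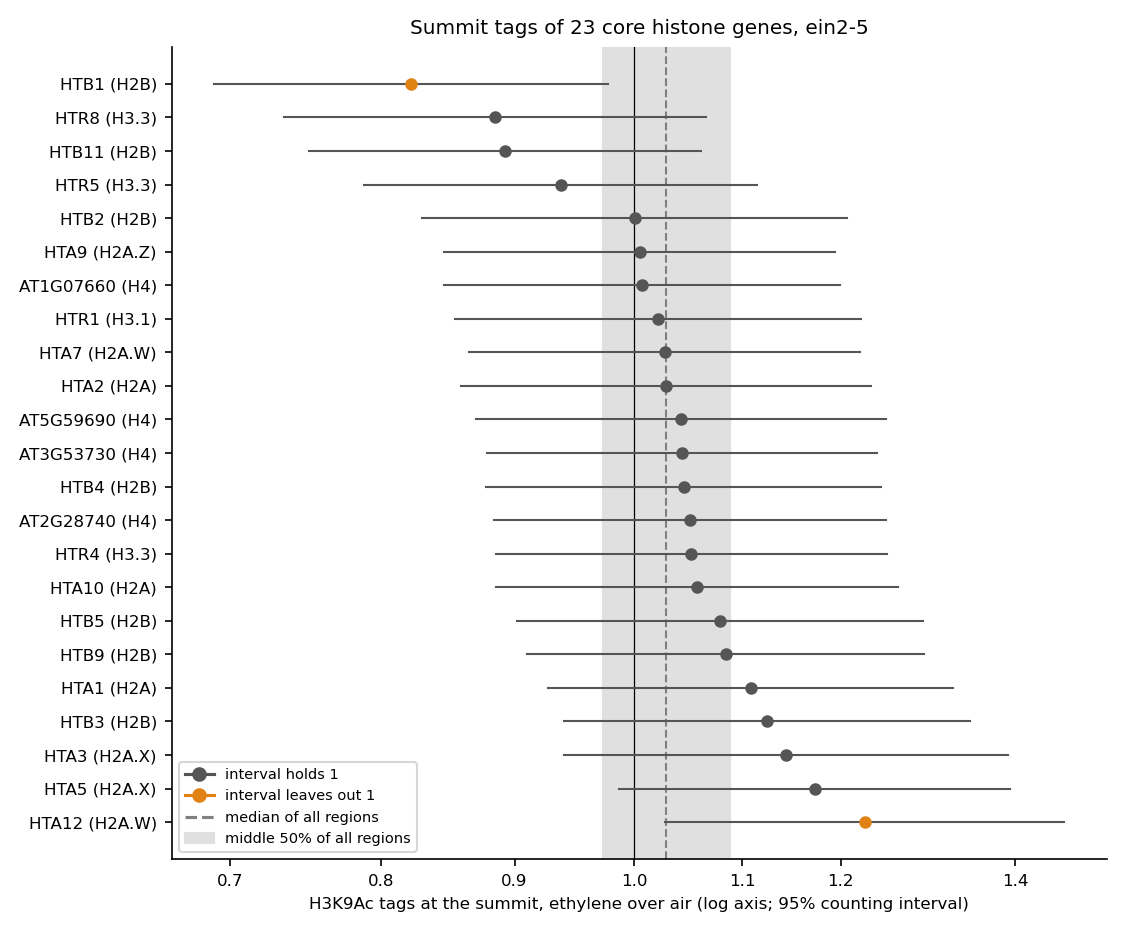
Ratio of H3K9Ac tags at the summit, ethylene over air, for 23 core histone genes (x axis, log scale), with 95% counting intervals as bars, the median of all 11700 regions as a dashed line and their middle 50% as a grey band. The intervals of HTB1 and HTA12 leave out 1 and those of the other 21 genes hold it.

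The 7 genes with a peak in air alone had fewer tags in air than most of the others. The groups were split by the threshold in ethylene, and summit tags differed little between the lists. Lower air values in the first group therefore follow from how the groups were formed and are no separate finding. Air summits of the 7 genes held between 157 and 259 tags with a median of 204. The 23 genes with a peak in both lists held between 203 and 373 air tags with a median of 312. The ranges overlap. The median air fold enrichment of the 7 genes was 1.83, against 2.60 for the genes in both lists. Protein-coding genes as a whole showed the same order, with a median of 217 air tags in the 3789 genes with a main peak in air alone and 283 in the 12063 genes with a peak in both lists.

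Some core histone genes are near copies of each other, and the authors kept only uniquely mapped 51-bp reads, so the share of each gene that such a read can cover was computed from the reference. For each gene and the 500 bp upstream, 51-bp stretches that occur once in the genome were counted. At least 90% were unique in 36 of the 41 genes, against 95.1% of all protein-coding genes, and in 26 genes every position was. The 5 genes under 90% were all replication-dependent, namely the H4 genes AT3G46320 (61.2%), AT3G45930 (61.6%), AT1G07660 (85.7%) and AT1G07820 (87.6%) and the H2B gene HTB1 (66.5%). In HTB1 the repeated part lay upstream, where 11.3% of positions were unique, while its gene body was unique throughout. All 6 replacement variant genes had at least 99.95% unique positions.

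To show how alike H4 genes are, the first 30 coding bases of the pair with the least unique sequence are set beside those of another pair. Capitals mark the bases that differ from AT3G45930. AT3G45930 and AT1G07660 are read from the plus strand and AT3G46320 and AT1G07820 from the minus strand of TAIR10.1 (RefSeq).
AT3G45930, chr3:16883390-16883419: atgtcaggtcgtggaaagggaggcaaaggt
AT3G46320, chr3:17020325-17020354: atgtcaggtcgtggaaagggaggcaaaggt
AT1G07660, chr1:2369212-2369241: atgtcaggAAgAggaaagggaggAaaaggA
AT1G07820, chr1:2421717-2421746: atgtcGggAAgAggaaagggaggAaaaggA
AT3G45930 and AT3G46320 shared 97.4% of their 312 coding bases (8 differed), and AT1G07660 and AT1G07820 shared 98.1% (6 differed). AT5G59690 and AT5G59970 shared 97.1% (9 differed). The other H4 pairs reached at most 87.8%.

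When up to 2 mismatches between copies were allowed, 10 of the 41 genes fell under 90% unique positions. AT3G45930 kept 31.1% and AT3G46320 kept 29.3%, and these 2 were each other's main partner, with 774 shared positions. The H4 genes AT1G07660 and AT1G07820 kept 73.9% and 77.3%, and AT5G59690 and AT5G59970 kept 78.5% and 80.9%. The H2B genes HTB9 and HTB11 kept 84.0% and 84.3%, and HTB1 kept 62.2%. The gene with which HTB1 shared the most positions, AT1G07770 (489 positions), is not a core histone gene of the list. HTA4 kept 54.2%, and the gene with which it shared the most positions, AT4G13560 (113 positions), is not a core histone gene of the list.

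Of the 11 genes without a peak, 9 had at least 94.4% unique positions even with 2 mismatches allowed. They include the H3.1 genes HTR2 (99.9%), HTR9 (94.4%) and HTR13 (99.2%), the H2A.Z genes HTA8 (95.9%) and HTA11 (100%), the H2B gene HTB6 (99.4%) and, at 100% each, HTR12, HTA6 and HTB8. The exceptions were AT3G46320 and HTA4. For AT3G46320 and HTA4 the absence of a peak cannot be told apart from a loss of reads, while the main air peaks of AT3G45930, AT1G07820 and AT1G07660 were unique at 49.8%, 65.2% and 71.2% of their positions, and what this does to their fold enrichment and breadth was not tested. The peaks of HTB1 were unique throughout in both lists, but only 11.3% of positions upstream of it were. What this does to its local background, and so to its fold enrichment, was not tested. Among the 36 genes with at least 90% unique positions the order of the classes was the same, with replication-dependent medians of fold enrichment of 1.82 in ethylene and 2.36 in air and replacement variant medians of 2.30 in ethylene and 2.89 in air.

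**Figure D4:**
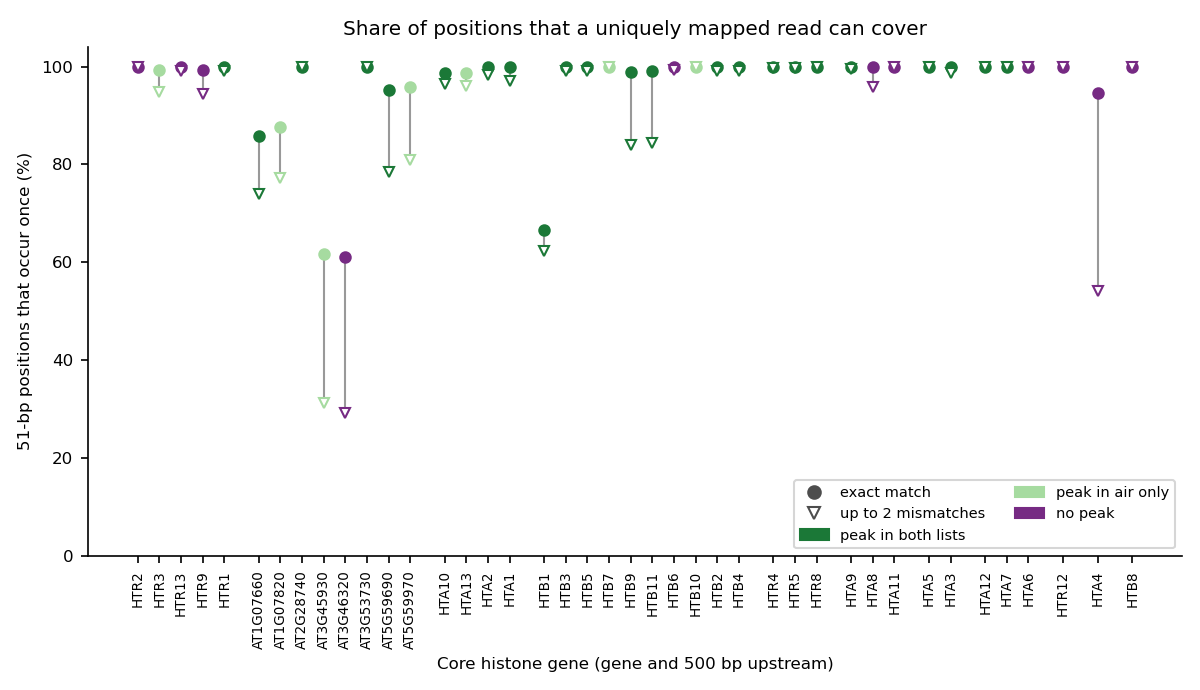
Share of 51-bp positions (y axis, in percent) that occur once in the genome in each core histone gene with 500 bp upstream (x axis), for exact matches (circles) and with up to 2 mismatches (triangles), coloured by the lists in which the gene has a peak. Of the 11 genes without a peak, AT3G46320 and HTA4 are the ones with low values, at 29.3% and 54.2% with 2 mismatches allowed.

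Replication-dependent histone genes of plants are known for an octamer, a hexamer and a nonamer in their promoters, and genes of S phase for the motif of E2F factors. These were looked for on both strands from 250 bp upstream to 50 bp downstream of the TSS. The octamer CGCGGATC occurred in 9 of the 41 promoters (22.0%) and in 40 of 27443 promoters of all protein-coding genes (0.146%). It was found in the H3.1 genes HTR1, HTR2 and HTR9, the H4 genes AT1G07660 and AT5G59690, the H2A genes HTA10 and HTA13, the H2A.W gene HTA6 and the H3.3 gene HTR5. The hexamer ACGTCA occurred in 13 of the 41 promoters, against 9.19% of all promoters, and in 9 of the 10 replication-dependent H2B genes. The nonamer CATCCAACG occurred in 0 of the 41 (0.171% of all promoters). An E2F motif (TTTCCCGC, TTTGGCGC, TTTCGCGC or TTTGCCGC) occurred in 3 of the 41 (1.76% of all promoters), namely AT3G45930, AT3G46320 and HTB2. No site of 1 motif overlapped a site of another in these promoters.

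The octamer sites are shown because this motif was rare in other promoters, with the octamer in capitals on the strand of the gene (TAIR10.1, RefSeq). GATCCGCG is the same motif on the opposite strand.
HTR1, chr5:26120689-26120718, minus strand: tttagacgtgaCGCGGATCactaaaattaa
HTR2, chr1:2972406-2972435, minus strand: tcgtaccttcaCGCGGATCagtgttagaaa
HTR2, chr1:2972335-2972364, minus strand: ctgtgatttcaCGCGGATCgtgatagaaac
HTR9, chr5:3271059-3271088, minus strand: ttaacacaggaCGCGGATCgtaaagataca
HTR5, chr4:18558944-18558973, minus strand: tttatttcagcGATCCGCGacggtttgtat
AT1G07660, chr1:2368696-2368725, plus strand: tacagatttcaCGCGGATCgcaatcttgga
AT5G59690, chr5:24051392-24051421, plus strand: cactgccatcaCGCGGATCactaatatgaa
HTA10, chr1:18926726-18926755, plus strand: attcactctgaCGCGGATCctgaatctcga
HTA10, chr1:18926790-18926819, plus strand: tgataaacagcGATCCGCGtagtttcttct
HTA13, chr3:7229311-7229340, plus strand: gcagtaacatcGATCCGCGtgattgtttat
HTA6, chr5:24116318-24116347, minus strand: atacatagtcaCGCGGATCgtgctttattt
The 11 sites began between 126 bp and 10 bp upstream of the TSS. HTR2 and HTA10 held 2 sites each.

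Genes with and without the octamer were both found among the genes with a peak in air and among those without one. Of the 30 genes with a peak in air, 6 had the octamer (20.0%), and of the 11 without one, 3 had it (27.3%, HTR2, HTR9 and HTA6). For the hexamer these counts were 11 of 30 and 2 of 11. A match is a run of letters and says nothing of binding in these seedlings.

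The hexamer sites of H2B genes are given for 4 genes with different peak calls, with the hexamer in capitals, on the strand of the gene. HTB1 and HTB5 had a peak in both lists, HTB10 in air alone and HTB6 in neither.
HTB1, chr1:2412895-2412924, plus strand: tgagaaatatacACGTCAatgatcctcgtg
HTB5, chr2:15736667-15736696, plus strand: tttatttaagccACGTCAtcgatcctcgcg
HTB10, chr5:577259-577288, minus strand: tcatctaacgacACGTCAtcgatctatgtc
HTB6, chr3:19889189-19889218, plus strand: tggatggatgacACGTCAtcgatccgcaag
The H2B gene without the hexamer in its window was HTB7, which had a peak in air alone.

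Genes whose products handle core histones, and other genes of S phase, were counted in the same way. These lists were chosen with earlier results of these data known, so their shares are descriptive and no independent contrast. Of 18 histone chaperone and exchange genes, 10 had a peak in ethylene (46% of all protein-coding genes did) and 16 in air (60.9%). FAS1 and FAS2, which encode the large subunits of chromatin assembly factor 1, the chaperone of H3.1, had no peak in either list. MSI1, which encodes the small subunit of this factor, had peaks in both lists. Its fold enrichment was 2.57 in air, and its peak in ethylene had the summit outside the gene. HIRA and ATRX, which encode chaperones of H3.3, had peaks in both, with fold enrichments of 2.46 and 2.15 in ethylene, against 2.57 and 2.17 in air. The SWR1 complex exchanges H2A for H2A.Z, and 3 of its subunits were among the genes counted. PIE1 had peaks in both lists, while ARP6 and SWC6 had a peak in air alone. The fold enrichment of ARP6, 3.34, was the highest of the 18 genes in air, before ASF1A at 2.67. SPT16, a subunit of the histone chaperone FACT, had the highest value in ethylene, 2.49. ASF1B, NAP1;3, NRP1 and NRP2, all genes of histone chaperones, also had a peak in air alone.

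The 3 genes of linker histone H1, which binds DNA between nucleosomes, had peaks in both lists, and the drought-inducible H1.3 had the highest fold enrichment of them, 2.69 in ethylene and 2.94 in air, before H1.1 at 1.76 in ethylene and 2.25 in air. Of 10 genes of S phase other than histones, 2 had a peak in ethylene and 4 in air, both below the 46% and 60.9% of all protein-coding genes. MCM7, a subunit of the replicative helicase, and TSO2, a subunit of ribonucleotide reductase, had peaks in both lists, with fold enrichments of 2.58 and 1.77 in ethylene, against 2.97 and 2.84 in air. PCNA1 and MCM4 had one in air alone. MCM2, MCM3, MCM5, MCM6, PCNA2 and RNR1 had none.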

How the data were processed

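H3K9Ac ChIP-seq of *ein2-5* seedlings was analysed from the deposited peak lists, 1 for ethylene and 1 for air. The authors kept uniquely mapped single-end reads of 51 bp on TAIR10 (Bowtie 1.1.2, and SAMtools, in the submitters' processing notes) and called peaks with MACS2 2.1.0.20150603 on pooled libraries against the control, at p = 0.01 with tags extended to 200 bp. For each peak the deposited lists give position, breadth, the summit's pileup signal, its fold enrichment (a ratio to the local background), and a p-value and a q-value on the −log10 scale. Although the headers call q-values unreported, the column was filled and was used for 1 alternative threshold.

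Gene models and sequences came from RefSeq TAIR10.1. Air peaks overlapped the first 200 bp of a gene in 63.9% of cases, and in 42.9% and 41.8% after shifts of -250 bp and 250 bp. Peaks were assigned to a gene body with 500 bp upstream by an overlap of at least 1 bp. Division of the pileup by the scaling factor gave H3K9Ac tags, which were within 0.05 of whole numbers. For ratios, tags were corrected for the ceiling of 400 by the logarithm of the free share of positions and scaled to total tags, with 95% counting intervals on the log scale. Positions that are unique with up to 2 mismatches were found with bwa 0.7.19, and the rest was computed in Python 3.11.15 with numpy 2.4.6 and pandas 2.3.3. For sequences, the coding sequence of the length most common in the subfamily was used, otherwise the longest.

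The rule for named genes takes members without a peak in a list, those with the largest and smallest fold enrichment and breadth of each class, those sharing a peak and those broader in ethylene, and of other lists the genes without a peak and the highest fold enrichments. Other genes were named after their values were seen. The members were chosen by what they encode. Earlier results of these data were known when members and lists were chosen. No test of the treatment could be made. Overlaps, uniqueness and ratios were tested on simulated data. Alternatives are given in the closing section.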

Additional observations from a re-analysis of the deposited data

How the results depend on the processing

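No paired analysis was possible because the replicates were pooled before peaks were called, and for the same reason no replicate could be left out. Over 26 results and 234 alternatives, 217 values stayed close to those reported and 17 moved. Close means counts within 1.5 times, and medians within the 95% interval of the median over genes, which is the whole range for 4 genes. Some of the 217 could not move, because the alternative left their input unchanged. Reducing the air list left every ethylene value as it was, and the limit on unique positions kept all replacement variant genes. The 217 are therefore no measure of how stable the results are. With peaks of at least 2-fold enrichment, 13 members had a peak in ethylene (33.9% of all protein-coding genes) and 23 in air (49.8%), 11 had one in both lists, 2 in ethylene alone and 12 in air alone, 11 were narrower and 0 broader in ethylene, and 6 replication-dependent genes had a peak in ethylene with a median fold enrichment of 2.43. The members' share in ethylene, 31.7%, was then below that of all protein-coding genes. At a q-value of at most 0.05, 17 members had a peak in both lists, 13 had a peak in air alone and 9 replication-dependent genes had one in ethylene. For peaks in air alone, the share over all protein-coding genes was computed for the full lists only. The members' shares were then 41.5% in ethylene, against 41.1% of all protein-coding genes, and 73.2% in air, against 60.7%. With the air list reduced to the length of the ethylene list, 23 members had a peak in ethylene (46% of all protein-coding genes) and 23 in air (48.3%), 4 in ethylene alone and 4 in air alone, and 0 were broader in ethylene. With peaks assigned to the nearest gene within 5 kb, 1 member was broader in ethylene. Taking the strongest overlapping peak wherever its summit lay, an alternative added after the data were seen, put the median air summit of replacement variants at -61 bp. Of protein-coding genes no longer than 1500 bp, 26.3% had a peak in ethylene and 36% in air. In every alternative 4 of the 6 replacement variant genes had a peak in each list. With peaks of at least 2-fold enrichment, HTR5 was counted in ethylene only through its upstream peak. That peak had a fold enrichment of 2.22 and its summit over the neighbour AT4G40042.

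Control depth and treatment cannot be told apart here. The lists show no region below the threshold, so a gene without a peak has no value.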
